A study of Mus musculus with 90 samples.

Results

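The genes described here are 8 secretory and epithelial genes of the mouse conducting airway: the secretoglobins Scgb1a1, Scgb3a2 and Scgb3a1, the BPI fold proteins Bpifa1 and Bpifb1, the lectin Reg3g, the Ly6 family gene Lypd2 and the keratin Krt15. Each was read from the probe set annotated to that symbol alone, and where a gene had several such probe sets the one with the highest mean over 90 arrays was used. All 8 of the 8 listed genes were measured, out of 17097 genes on the array with such a probe set. Only Bpifb1 had a second probe set, and its level stayed within 1 SD of the first in all 18 groups.

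Club cells are the main secretory cells of mouse bronchioles. They release secretoglobins, small proteins of the airway lining fluid, and they carry the cytochromes P450 that oxidise inhaled solvents such as styrene. BPI fold proteins and Reg3g are antimicrobial or host-defence proteins that are made most strongly towards the large airways, while Krt15 belongs to the cytoskeleton of basal and stratified epithelia.

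The lungs came whole from adult male C57Bl/6 mice, with 1 array per animal and 5 animals in each of 18 groups. WT mice are wild type, KO mice lack Cyp2f2, a P450 of club cells, and TG mice, labelled CYP2F2(-/-),2F1,SA13,2B6 and called CYP2F1 humanized, carry human transgenes on the knockout. Each strain inhaled air with styrene at 0, 40 or 120 ppm, 6 hours daily on 5 days of each week, over 1 or 4 weeks. Tissue was taken on the morning that followed the final exposure. The labels give no transgene promoter, exact age or litter.

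The values are log2 expression levels, and the array medians ran from 4.42 to 4.86. Both alveolar marker lists marked the tissue as lung, with group means of 11.7 to 12.0 for type II and 11.8 to 12.0 for type I cell markers. In unexposed animals Cyp2f2 was lower than in WT by 1.41 in KO (log2 difference -1.41, limma adjusted p = 7.4e-31) and by 1.39 in TG (log2 difference -1.39, limma adjusted p = 1.6e-30), and all 10 animals of either strain lay below all 10 of WT. Its signal stayed at 11.8 to 11.9 in those groups, and it was near-saturated (within 1 log2 unit of the highest value, 14.01) in WT at 13.3, so the size of this difference is read near the top of the scale. Limma gave 4 arrays a weight under 0.25: KO at 40 ppm and 4 weeks animal 1, WT at 120 ppm and 1 week animal 3, TG at 0 ppm and 1 week animal 5, and KO at 0 ppm and 1 week animal 3. One lung, TG at 40 ppm and 4 weeks animal 3, stood apart in the list of basal and squamous epithelium markers, with a list mean of 7.16 against 3.63 to 4.19 in the other 89. Results on Krt15 that rest on this animal are given with and without it. Since whole lung was measured, fewer cells of a type and less RNA per cell cannot be told apart.

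The promoters printed in this paragraph belong to the 4 members that moved together from animal to animal, as described further on. They are the 150 bases before each RefSeq start on GRCm38.p6, written 5′ to 3′ on the gene's own strand, and Bpifb1 has 2 listed starts. Capitals mark matches to TATAAA on the gene strand (TATA box), and on either strand to TNTTTAC (forkhead), TTCNNNGAA (STAT), TTGCNNAA (CEBP) and CTCAAG (NKX2-1 core). No matches of these motifs overlapped one another.
Scgb3a1, chr11:49663445-49663594, plus strand: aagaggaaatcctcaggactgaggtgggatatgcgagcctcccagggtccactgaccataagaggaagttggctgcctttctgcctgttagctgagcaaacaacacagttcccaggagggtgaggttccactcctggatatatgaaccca
Bpifa1, chr2:154142730-154142879, plus strand: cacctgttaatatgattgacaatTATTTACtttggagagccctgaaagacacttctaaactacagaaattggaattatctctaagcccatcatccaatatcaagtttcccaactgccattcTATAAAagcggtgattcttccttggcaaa
Bpifb1, first start, chr2:154190668-154190817, plus strand: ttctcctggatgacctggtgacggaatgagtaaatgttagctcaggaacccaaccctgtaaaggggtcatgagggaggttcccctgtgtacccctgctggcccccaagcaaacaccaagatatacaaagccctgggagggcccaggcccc
Bpifb1, second start, chr2:154200230-154200379, plus strand: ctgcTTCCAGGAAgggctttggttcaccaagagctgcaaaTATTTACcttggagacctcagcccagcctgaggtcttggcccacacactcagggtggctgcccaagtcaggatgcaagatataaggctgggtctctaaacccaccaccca
Reg3g, chr6:78468875-78469024, minus strand: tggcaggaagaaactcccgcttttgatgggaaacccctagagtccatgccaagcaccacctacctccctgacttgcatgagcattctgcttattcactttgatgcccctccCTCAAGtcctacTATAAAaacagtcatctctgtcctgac

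TATAAA began 29 bases before the Bpifa1 start and 27 bases before the Reg3g start, and 4.84% of 32851 promoter windows of the same length held it. The forkhead letters occurred 127 bases before the Bpifa1 start and 110 bases before the second Bpifb1 start, against 5.97% of all windows. The STAT letters lay 146 bases before that second Bpifb1 start (4.09% of windows), and CTCAAG lay 39 bases before the Reg3g start (7.69% of windows). TTGCNNAA, present in 5.46% of windows, was found in none of the 5. No motif was common to all 4 genes in these windows, and a match is a description of letters only. Promoters of Scgb1a1, Scgb3a2, Lypd2 and Krt15 were not used here.

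The 8 genes ranged from the brightest probe sets of the array to dim ones. Scgb1a1, which encodes the club cell secretory protein, averaged 13.77 over 90 animals (lowest 13.51, highest 13.93), at the 99.99th percentile of probe sets in the median array. Scgb3a2, a secretoglobin of the same cells, averaged 13.33 (13.09 to 13.49). The highest value on any array was 14.01, and both genes lay within 1 log2 unit of it in 18 of 18 groups, here called near-saturated. How far the array still responds at that height was not tested, so small differences of these 2 genes are read near the top of the scale. A near-constant level was what the arrays showed: the lungs with the most and the least signal differed 1.35-fold for Scgb1a1 and 1.32-fold for Scgb3a2. Scgb1a1 read exactly 13.7898 in animals of several groups. Among them were animals 1 and 2 of unexposed KO at 1 week and animals 4 and 5 of unexposed KO at 4 weeks. How far the normalization sets values at this height, and with them the narrow range, was not tested.

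The third secretoglobin, Scgb3a1, averaged 12.21 and ranged from 9.33 to 13.25, a 15.2-fold range. Bpifa1, a secreted protein of the airway surface liquid, averaged 11.93 (7.47 to 13.51). Its relative Bpifb1, also on chromosome 2, averaged 9.04 (4.79 to 11.37). Reg3g, a C-type lectin that binds bacterial cell walls, averaged 8.46 and had the widest range of the 8, from 4.25 to 11.12, which is 117-fold. Lypd2, a member of the Ly6 family of small cysteine-rich proteins, averaged 9.58 (8.04 to 11.05). Krt15, a type I keratin, averaged 3.72 (2.62 to 7.36), and its group mean was below the lowest array median, here called dim, in 16 of 18 groups.

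**Figure D1:**
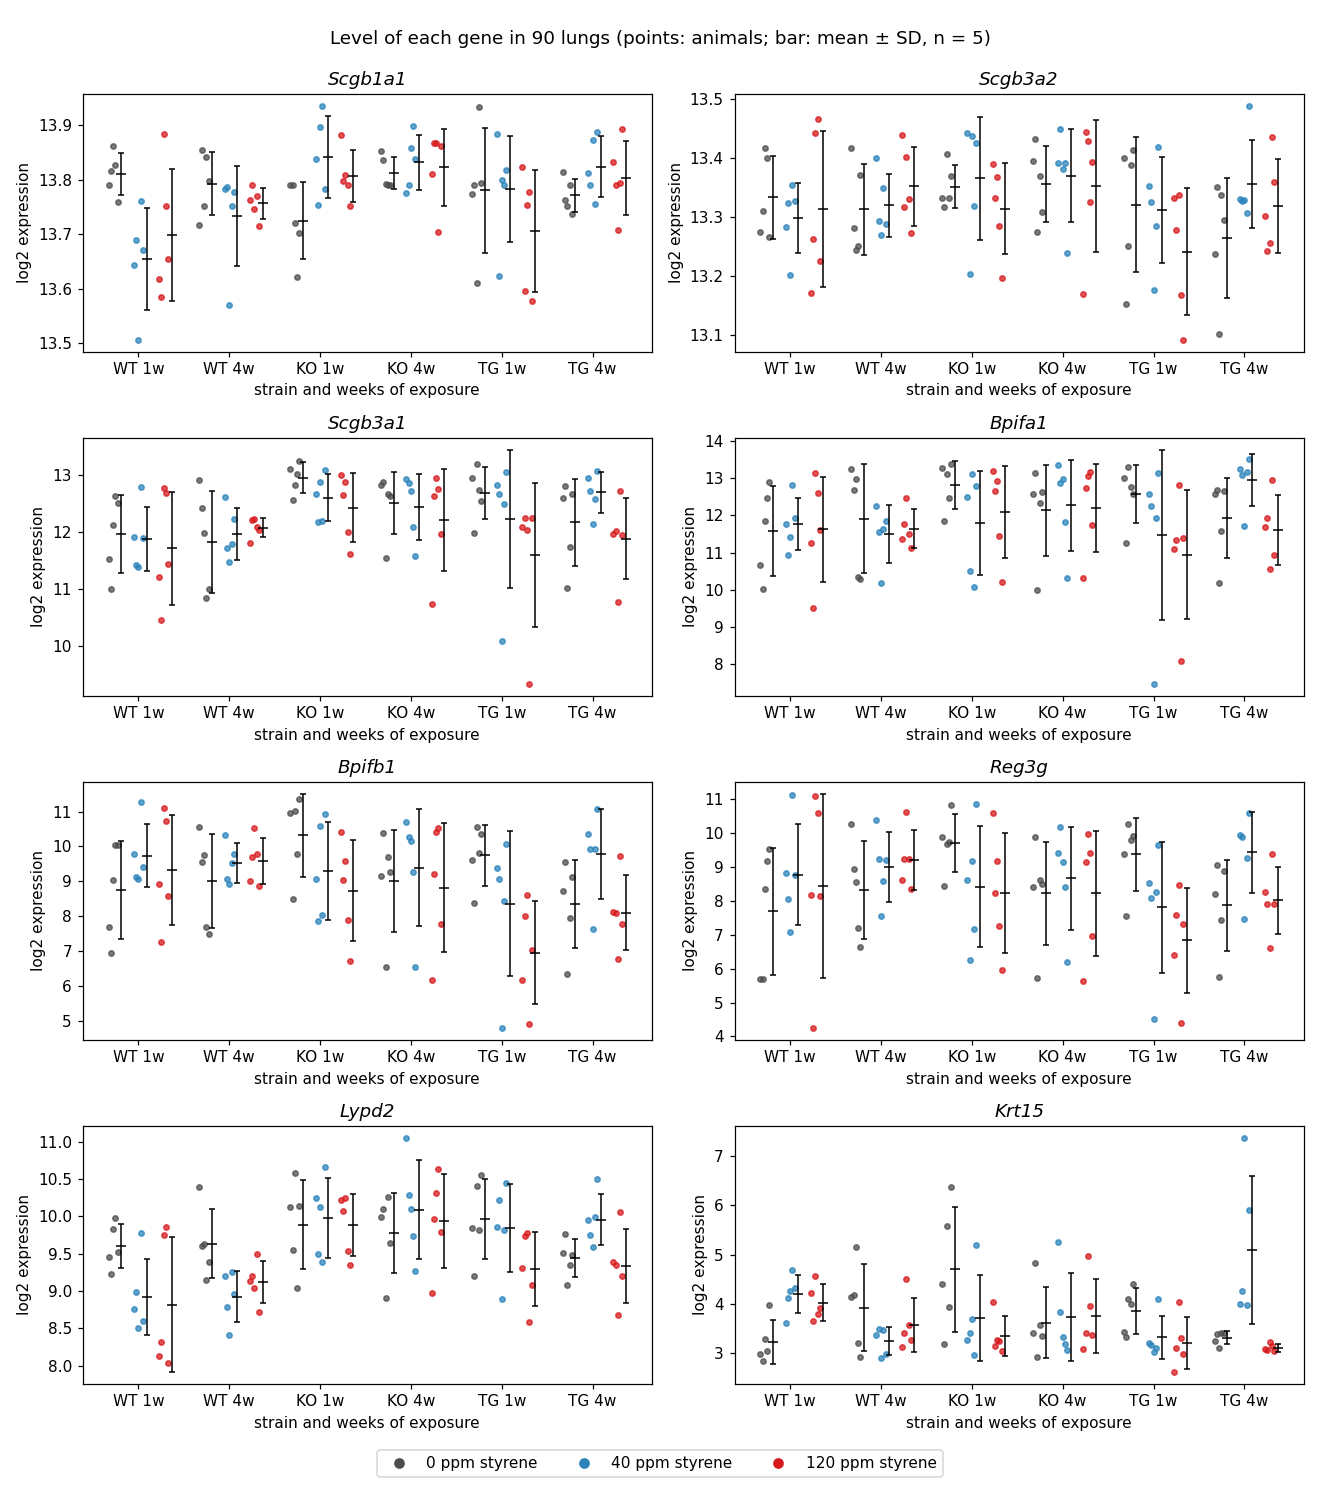
Log2 expression of the 8 genes in 90 lungs, by strain and weeks of exposure on the x axis and styrene dose by colour. Points are animals, and bars show the mean and SD of 5 animals. Scgb1a1 and Scgb3a2 stay between 13.09 and 13.93 on narrow axes, while Reg3g runs from 4.25 to 11.12 within the same lungs.

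In the order of the 18 group means, neighbouring groups lay close to each other for all 8 genes. For each gene, 0 of the 17 steps between neighbours in the order was larger than the pooled SD of both groups. Sorting 18 means makes each step small, and this SD is that of single animals, not of a mean. Small steps were therefore likely beforehand, and they do not tell whether groups far apart in the order differ. Unexposed KO mice at 1 week had the highest mean of Scgb3a1 (12.96), Bpifb1 (10.32) and Reg3g (9.71). TG mice at 120 ppm and 1 week had the lowest mean of Scgb3a1 (11.59), Bpifa1 (10.95), Bpifb1 (6.95) and Reg3g (6.84). Lypd2 had its 4 lowest means in the 4 exposed WT groups, from 8.82 to 9.12, and its highest in KO mice at 40 ppm and 4 weeks (10.09). For Krt15 the highest means were 5.10 in TG mice at 40 ppm and 4 weeks and 4.70 in unexposed KO mice at 1 week. Without the lung with high squamous markers the TG mean was 4.53 and the KO mean was the highest.

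Animals of one group differed from each other far more in Reg3g, Bpifb1 and Bpifa1 than in most genes. The SD between animals within groups was 1.56 for Reg3g, 1.36 for Bpifb1 and 1.22 for Bpifa1, which placed them at ranks 3, 7 and 9 of 17097 genes by spread. Scgb3a1 (0.72, rank 79), Krt15 (0.71, rank 85) and Lypd2 (0.52, rank 275) were also above the median gene, whose SD was 0.19. Scgb1a1 and Scgb3a2 stood at the other end, with SDs of 0.08 and 0.09 and ranks of 16971 and 16820. Both are near-saturated, so these small SDs carry the limit given above for their narrow range. The share of a gene's variance that lay between the 18 groups was 43.3% for Lypd2, 40.2% for Krt15 and 36.5% for Scgb1a1, compared with 26.5% for the median gene. It was 15.6% for Scgb3a2, 16.8% for Bpifa1, 20.0% for Reg3g, 24.9% for Scgb3a1 and 27.9% for Bpifb1. Most of the variance of each of these genes thus lay between animals treated alike, as it did for the median gene. The shares are not adjusted for the number of groups. Fitting 18 means to 90 animals gives a positive share even without a group difference, so a low share is not read as one. Without the lung with high squamous markers Krt15 had an SD of 0.64 (rank 96) and a share of 36.7%.

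**Figure D2:**
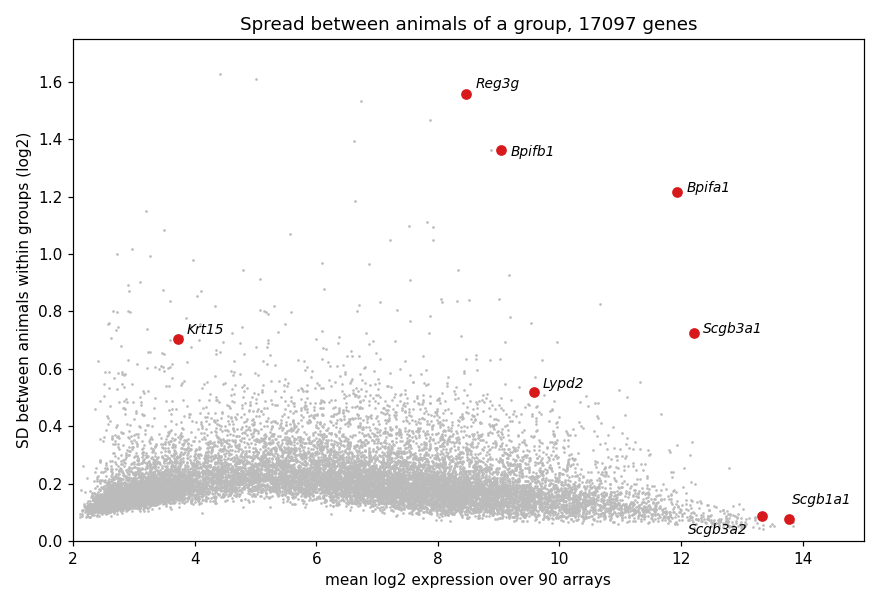
SD between animals of a group (y axis, log2) against the mean log2 level (x axis) for 17097 genes, with the 8 genes in red. Reg3g at 1.56, Bpifb1 at 1.36 and Bpifa1 at 1.22 lie at the upper edge, and Scgb1a1 and Scgb3a2 lie at the lower right.

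The variable genes went up and down in the same animals. In TG mice at 40 ppm and 1 week, Bpifa1 was 12.57, 12.25, 7.47, 11.94 and 13.14 in animals 1 to 5. Bpifb1 was 9.39, 9.08, 4.79, 8.44 and 10.08 in the same animals, and Reg3g was 8.52, 8.10, 4.53, 8.28 and 9.66. Animal 3 was the lowest in all 3 genes and animal 5 the highest. Scgb3a1 followed the same order at its ends, with 10.08 in animal 3 and 13.05 in animal 5. Scgb1a1 in these lungs was 13.88, 13.62, 13.80, 13.79 and 13.82, and its lowest animal was another one.

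In TG mice at 120 ppm and 1 week, animal 4 was the lowest in the same 4 genes. It had 9.33 for Scgb3a1, 8.09 for Bpifa1, 4.91 for Bpifb1 and 4.40 for Reg3g. Across the study, 1 animal was the lowest of its group in all of Scgb3a1, Bpifa1, Bpifb1 and Reg3g in 14 of 18 groups, and 1 animal was the highest in all 4 in 13 of 18. These 4 are the genes that moved together most closely in the same animals. The counts therefore describe that likeness again and are no separate support for it. The lowest Reg3g level of all, 4.25, was in WT mice at 120 ppm and 1 week (animal 2), beside 8.17, 11.09, 10.60 and 8.15 in the other 4 animals.

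**Figure D3:**
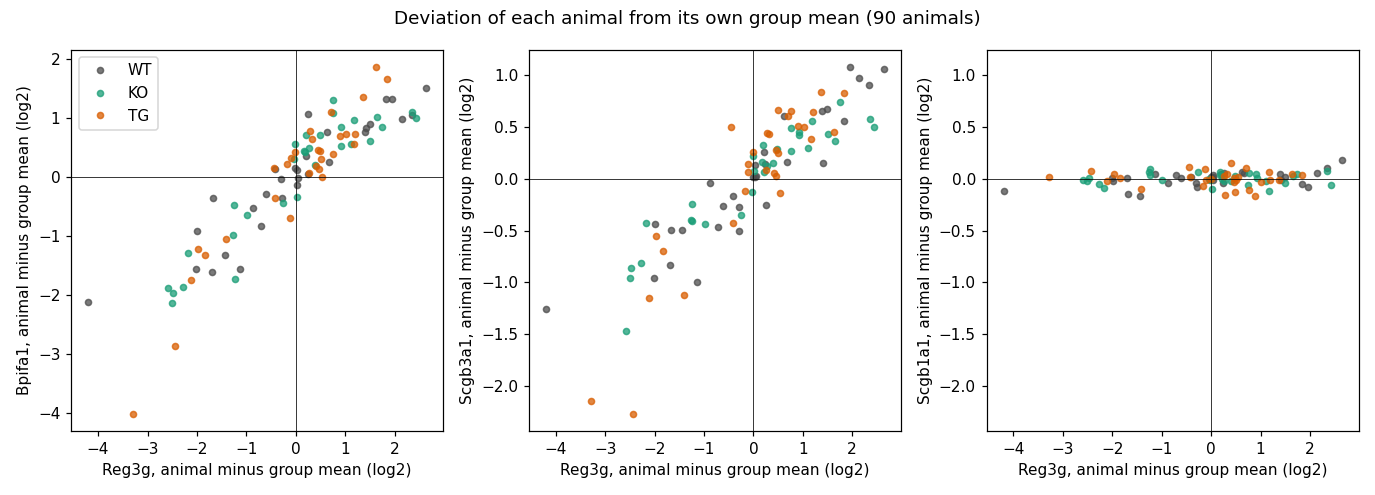
Each animal's deviation from its own group mean for Bpifa1, Scgb3a1 and Scgb1a1 (y axes, log2) against that of Reg3g (x axis, log2) in 90 animals, coloured by strain. Bpifa1 (r = 0.92) and Scgb3a1 (r = 0.90) rise with Reg3g, and Scgb1a1 (r = 0.19) stays flat.

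Taking each animal's deviation from its group mean, the 6 pairs among Scgb3a1, Bpifa1, Bpifb1 and Reg3g correlated at 0.90 to 0.95 (Pearson r over 90 arrays, given as a description because both genes are read on the same arrays). These values were 0.90 to 0.95 without the 4 arrays of low weight as well. Lypd2 followed them at 0.78 to 0.85, and Scgb3a2 at 0.62 to 0.67 despite its narrow range. Krt15 followed them at 0.31 to 0.46, or 0.39 to 0.62 without the lung with high squamous markers. Scgb1a1 had r between 0.07 and 0.19 with the 4 genes and 0.42 with Scgb3a2. Its values lie near the top of the scale and some are identical between arrays, which limits what its r can show.

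Ciliated, mucous and other secretory marker lists moved with the same lungs. The mean of 12 measured ciliated cell markers correlated at 0.74 to 0.77 with Scgb3a1, Bpifa1, Bpifb1, Reg3g and Lypd2 over the 90 deviations, and at 0.66 with Scgb3a2. Its group means ran from 7.43 to 7.89, and single animals from 7.10 to 8.18. The mean of 15 mucous cell markers correlated at 0.77 to 0.88 with these 5 genes, and that of 24 other club and airway secretory markers at 0.80 to 0.89. With 9 alveolar type II markers r was -0.45 to -0.31, and with 8 alveolar type I markers it was -0.24 to 0.08. A list of 13 salivary, thyroid, thymus and muscle markers, 7 of them dim in all groups, gave r of 0.45 to 0.59. Its list mean ran from 3.73 to 5.43 in single animals. The basal and squamous list gave r of -0.12 to -0.03, or 0.22 to 0.38 without the lung that stood apart. The interleukin response list gave -0.17 to 0.01, the family relatives 0.09 to 0.36 and the differentiation regulators 0.27 to 0.52. Dim in all groups were 18 of 21 family relatives, 9 of 19 interleukin response genes and 8 of 14 basal and squamous genes. So were 6 of 15 mucous markers and 4 of 21 differentiation regulators. A low r with a mostly dim list is therefore not read as a lack of likeness. The array median gave r of -0.21 to 0.04, the array weight -0.14 to 0.07 and the mean of the poly-A controls -0.07 to 0.28. The highest of these, 0.28 for Lypd2 with the poly-A controls, was 0.19 without the 4 arrays of low weight. Without those arrays the array median gave r of -0.01 to 0.22, with 0.22 for Reg3g and 0.18 for Bpifb1. The array weight then gave -0.005 to 0.12 and the poly-A controls -0.08 to 0.19. How much airway or adjoining tissue each lung sample held was not tested.

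**Figure D4:**
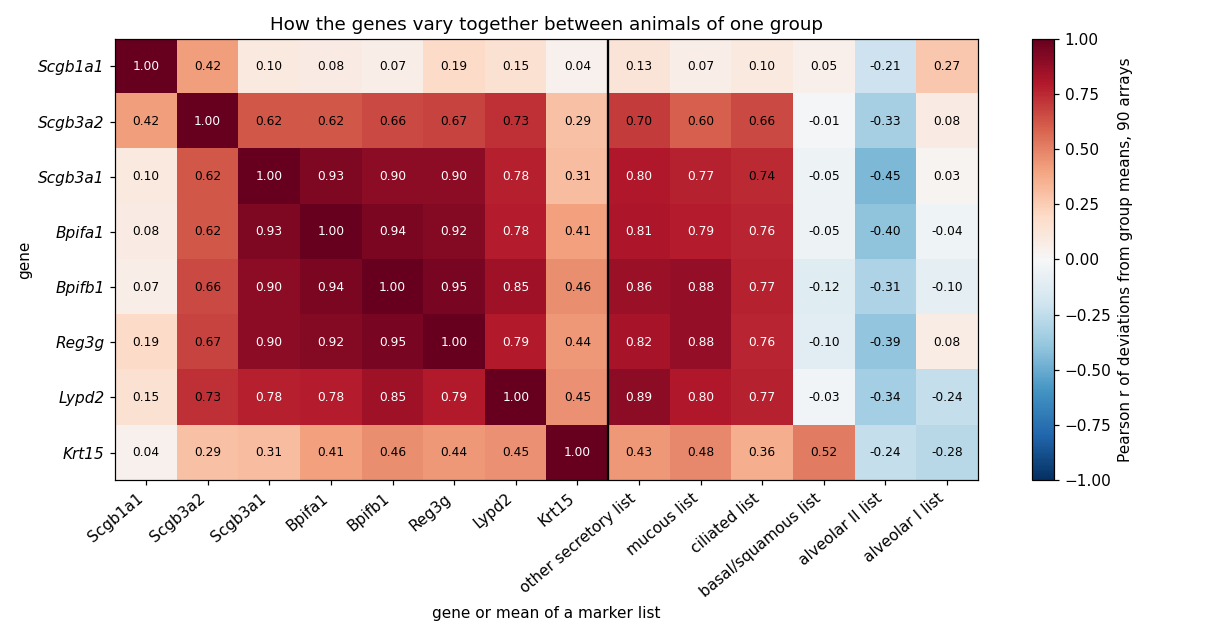
Pearson r of deviations from group means over 90 arrays, for each of the 8 genes (y axis) with each other and with the means of 6 marker lists (x axis). The block of Scgb3a1, Bpifa1, Bpifb1 and Reg3g holds r of 0.90 to 0.95, and the Scgb1a1 line, apart from its own square, stays at or under 0.42.

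The genes nearest to the block in these deviations, a ranking chosen after the data had been seen, were Tff2 and Muc5b for all 4, with Ltf for Bpifa1 and Bpifb1, Cyp2a5 for Reg3g and Sult1d1 for Scgb3a1. Tff2, a trefoil peptide secreted with mucus, correlated at 0.92 with Scgb3a1, 0.90 with Bpifa1, 0.95 with Bpifb1 and 0.94 with Reg3g. Muc5b, a gel-forming airway mucin, followed at 0.84 to 0.90. Lypd2 was closest to Chad, an extracellular matrix protein, at 0.94, and to Gsto1, a glutathione transferase, at 0.89. For Scgb1a1 the closest genes were bright ones: Tmsb4x, a thymosin with a mean level of 13.25 (r = 0.66), Chchd2 (0.65) and the surfactant gene Sftpc with a mean level of 13.83 (0.63).

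Over the 18 group means, a separate ranking named the 3 most similar genes above the 40th percentile of level. For Scgb3a1 they were Tff2 (r = 0.94), Chad (0.91) and Cadm4 (0.86), and for Bpifa1 Serpina9 (0.89), Adh7 (0.84) and Scgb3a1 (0.83). Bpifb1 was closest to Reg3g (0.94), Mall (0.90) and Ltf (0.88), and Reg3g to Bpifb1 (0.94), Anxa8 (0.88) and Tmem158 (0.87). The group means of Lypd2 resembled those of Slc24a3 (0.93) and of the muscle genes Cnn1 (0.92) and Des (0.91), and those of Krt15 resembled Perp (0.80), Serpina9 (0.79) and Sdr42e1 (0.78), or 0.74, 0.81 and 0.67 without the lung with high squamous markers. Scgb1a1 was closest to Ccng2 (0.89), Igflr1 (0.87) and Prdm11 (0.87), and Scgb3a2 to Adprhl2 (0.90), Hectd3 (0.88) and Phrf1 (0.86). For those 6 genes r over the deviations was at most 0.04, so their likeness lay between group means and was not seen between animals of a group.

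Loss of Cyp2f2 left the 8 genes without a called difference in unexposed lungs. In KO against WT, 0 of 8 passed limma's adjusted p of 0.05 (0.275% of all genes did), as in TG against WT (0.287%) and TG against KO (0.135%), 10 animals per strain. Scgb3a1 came nearest. At 1 week it was 11.52, 11.002, 12.12, 12.63 and 12.52 in WT and 13.11, 12.56, 12.82, 13.03 and 13.25 in KO, and at 4 weeks 12.91, 12.43, 11.98, 10.83 and 10.998 in WT and 12.83, 12.87, 11.55, 12.66 and 12.63 in KO. At 1 week 4 of 5 KO animals lay above the highest WT animal, while at 4 weeks all 5 KO animals lay within the WT range. The difference was 0.84 (SE 0.31, 1.79-fold, 95% interval 0.21 to 1.47), with a limma adjusted p of 0.45 and a two-sided permutation p of 0.0090. With the mean of the ciliated markers as a covariate, a fit chosen after seeing the data, it was 0.91 with a limma adjusted p of 0.017. The interval for Reg3g was -0.39 to 2.31 and that for Scgb1a1 -0.11 to 0.04. In unexposed mice the 4 week and 1 week levels also gave 0 of 8 calls, where 17.2% of all genes were called.

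Styrene gave no called change of any of the 8 genes in a single dose, week and strain. Over 12 such comparisons of 5 exposed and 5 control animals, 0 of 96 tests passed limma's adjusted p of 0.05, 15 had an unadjusted p under 0.05, and 13 a two-sided exact permutation p under 0.05. The share of all genes at these unadjusted limits was not counted. The 40 and 120 ppm groups of a strain and week share their controls, and several of the genes moved together. No excess is therefore read from these counts. The share of all genes called was 4.67% for WT at 40 ppm and 6.79% at 120 ppm after 1 week, and 0.152% and 0.439% after 4 weeks. In KO it was 0%, 0%, 0% and 0.0234% in the same order, and in TG 0%, 0.0468%, 0% and 0.0117%. The median change over the 8 genes was 0.08 in WT at 40 ppm and 1 week and 0.01 at 120 ppm, beside 0.03 and 0.00 over all genes. In the same week it was -0.67 in KO at 40 ppm, -0.63 in KO at 120 ppm, -0.50 in TG at 40 ppm and -0.88 in TG at 120 ppm, beside 0.00, -0.02, -0.00 and -0.05 over all genes. At 4 weeks it lay between -0.15 and 0.13 except in TG at 40 ppm (0.77, beside 0.03). The KO and TG controls of 1 week ranked 1 and 3 of 18 groups for Scgb3a1, Bpifb1 and Reg3g, and 2 and 3 for Bpifa1. These genes also moved together between animals, so a median here does not stand for 8 separate genes. What part the high controls had in the medians was not tested.

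**Figure D5:**
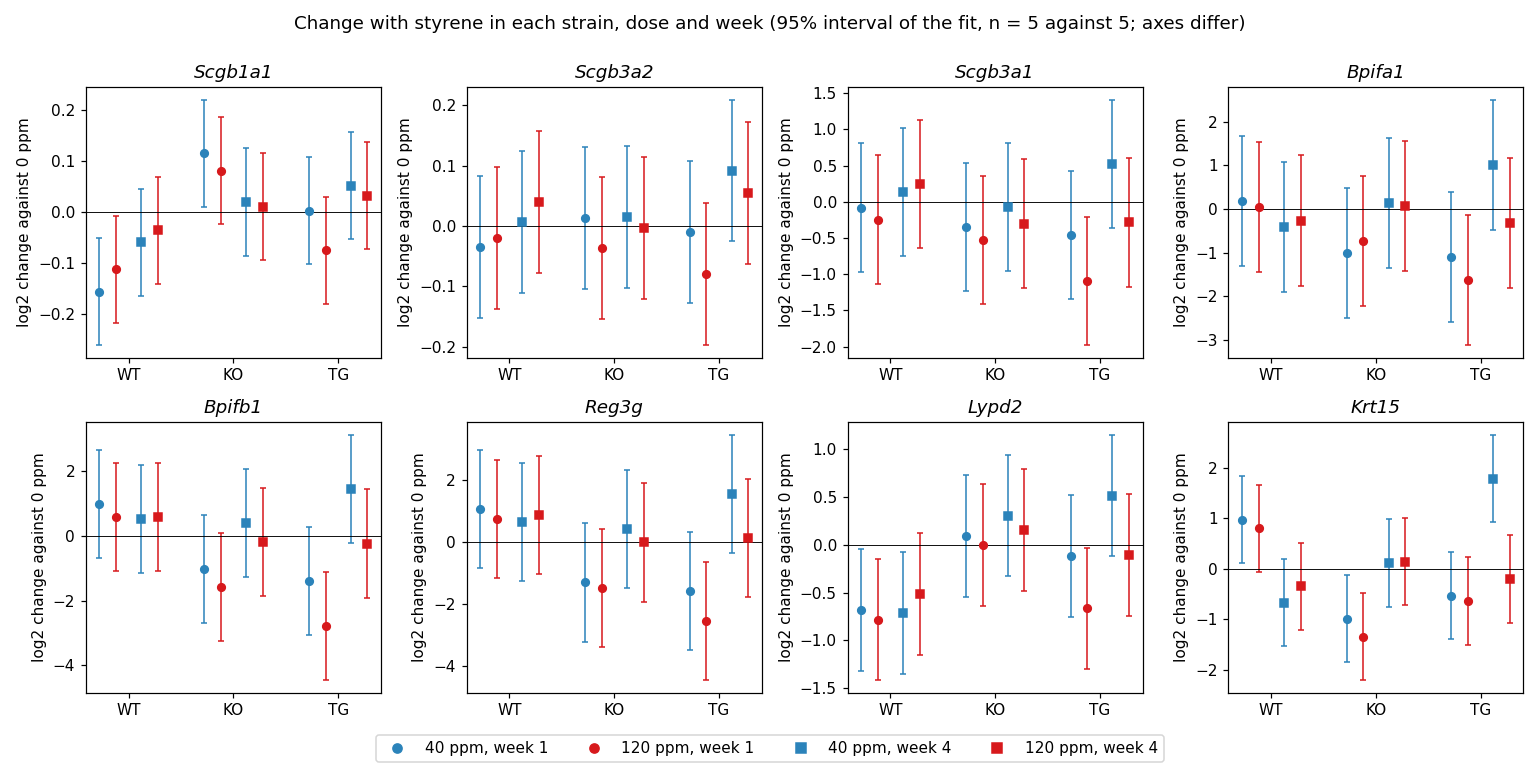
Log2 change against unexposed mice of the same strain and week for the 8 genes (y axes differ), by strain on the x axis, with dose by colour and week by symbol. Bars are 95% intervals of the limma fit, 5 against 5 animals. All 4 Lypd2 changes in WT lie below 0, and the intervals of Bpifb1 and Reg3g span several log2 units.

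Scgb1a1 averaged slightly lower in WT after 1 week of styrene, by an amount that did not pass the threshold. Controls measured 13.79, 13.82, 13.86, 13.83 and 13.76, and mice at 40 ppm measured 13.64, 13.69, 13.51, 13.76 and 13.67. Of the exposed animals, 4 lay below all controls, and 1 overlapped. The difference was -0.16 (SE 0.05, 1.11-fold, limma adjusted p = 0.073, two-sided exact permutation p = 0.016). In KO the controls were 13.79, 13.79, 13.72, 13.62 and 13.70 and the 40 ppm animals 13.84, 13.75, 13.90, 13.93 and 13.78, a change of 0.12 (limma adjusted p = 1.0). The difference between these changes, KO minus WT, was 0.27 (SE 0.07, 95% interval 0.12 to 0.42) and passed with a limma adjusted p of 0.042, where 1.25% of all genes were called and 0.205% were called higher. It was lost in 12 of 20 fits that each left out 1 animal (adjusted p 0.031 to 0.14), and it was 0.18 with an adjusted p of 0.16 after quantile normalization was applied again. At 120 ppm the WT change was -0.11, and after 4 weeks it was -0.06 and -0.04. Scgb3a2 changed by -0.08 to 0.09 over the 12 comparisons, with a lowest adjusted p of 0.64 in limma.

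Scgb3a1, Bpifa1, Bpifb1 and Reg3g had wide intervals everywhere, and the lowest group mean of each was that of TG mice after 1 week at 120 ppm. Bpifb1 was 9.62, 8.36, 10.57, 9.81 and 10.37 in TG controls and 6.18, 8.01, 8.62, 4.91 and 7.04 at 120 ppm. Of these exposed animals, 4 lay below all controls and animal 3 overlapped. The difference was -2.79 (SE 0.84, 6.92-fold, 95% interval -4.46 to -1.12), with a limma adjusted p of 0.26 and a two-sided exact permutation p of 0.016. Reg3g was 9.38, 7.55, 10.28, 9.79 and 9.92 in the controls and 6.39, 7.60, 8.47, 4.40 and 7.33 at 120 ppm. That is -2.55 (SE 0.96, limma adjusted p = 0.41, exact permutation p = 0.024), with 3 of 5 below all controls. Bpifa1 (-1.63, limma adjusted p = 0.50) and Scgb3a1 (-1.09, limma adjusted p = 0.45) were lower on average too. In the same groups the mean of the ciliated list was 7.67 in controls and 7.45 at 120 ppm, that of the mucous list 5.05 and 4.25, and that of the other secretory list 9.17 and 8.79. With the ciliated mean as a covariate, added after seeing the data, the changes were -1.70 for Bpifb1, -1.31 for Reg3g, -0.67 for Bpifa1 and -0.54 for Scgb3a1, and none passed (lowest limma adjusted p = 0.28). The part of the other lists in these values was not tested.

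In WT at 120 ppm and 1 week Bpifb1 differed from controls by 0.57 and Reg3g by 0.75, with intervals of -1.10 to 2.24 and -1.15 to 2.66. The difference between strains, TG change minus WT change, was -3.36 for Bpifb1 (SE 1.19, limma adjusted p = 0.081) and -3.30 for Reg3g (SE 1.35, limma adjusted p = 0.14). With 4.59% of all genes called in this comparison, 0 of the 8 were. After 4 weeks the TG changes at 120 ppm were -0.24 for Bpifb1 and 0.14 for Reg3g. At 40 ppm and 4 weeks they were 1.44 and 1.56, and neither passed (limma adjusted p = 0.76 and 0.79).

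Lypd2 averaged lower in all 4 exposed WT groups than in their controls, and no single one of these differences passed the threshold. At 1 week it was 9.46, 9.23, 9.83, 9.98 and 9.52 in controls, 8.76, 8.98, 8.50, 9.77 and 8.59 at 40 ppm, and 8.13, 8.32, 9.74, 9.86 and 8.04 at 120 ppm. Of the exposed animals, 4 of 5 at 40 ppm and 3 of 5 at 120 ppm lay below every control. Animal 3 at 120 ppm, at 9.74, is 1 of the 4 arrays of low weight. At 4 weeks it was 10.39, 9.61, 9.64, 9.15 and 9.39 in controls, 9.20, 8.78, 8.42, 9.26 and 8.96 at 40 ppm, and 9.13, 9.20, 9.04, 9.50 and 8.72 at 120 ppm. Here 3 of 5 in each exposed group lay below every control.

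For Lypd2 in WT the limma differences were -0.68 (SE 0.32, adjusted p = 0.26, exact permutation p = 0.048) and -0.78 (adjusted p = 0.13, exact permutation p = 0.13) at 1 week. At 4 weeks they were -0.71 (adjusted p = 0.95, exact permutation p = 0.024) and -0.52 (adjusted p = 0.95, exact permutation p = 0.048). In KO the changes were 0.09, -0.00, 0.31 and 0.16 in the same order. In TG they were -0.12, -0.66, 0.52 and -0.10.

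Having seen these values, the doses and weeks were averaged within a strain, which added 5 comparisons and 40 tests of the 8 genes, of which 1 passed. It was Lypd2 in WT, at -0.67 (SE 0.20, 1.59-fold lower, 95% interval -1.06 to -0.28, limma adjusted p = 0.019), where 7.84% of all genes were called and 2.38% were called lower. Since it was chosen on the same animals, it is no independent evidence of the direction. Without WT control animal 1 at 4 weeks the average was -0.58 and did not pass (adjusted p = 0.062). The average was 0.14 in KO and -0.09 in TG, where 0.0117% and 0.123% of all genes were called. The difference from WT was 0.81 in KO (adjusted p = 0.14) and 0.58 in TG (adjusted p = 0.24), so a difference between strains was not called, while 1.35% and 3.41% of all genes were.

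The Lypd2 difference in WT was larger in a fit with the ciliated marker mean as a covariate, also chosen after seeing the data. It was then -1.07 at 40 ppm (limma adjusted p = 0.00027) and -1.09 at 120 ppm (limma adjusted p = 0.00017) after 1 week, -0.90 (limma adjusted p = 0.026) and -0.81 (limma adjusted p = 0.054) after 4 weeks, and -0.97 on average (limma adjusted p = 7.5e-08). The averaged change then differed from WT by 1.12 in KO (limma adjusted p = 3.1e-05) and by 0.98 in TG (limma adjusted p = 0.00049). At 1 week the KO change in Lypd2 differed from that in WT by 1.37 at 40 ppm (limma adjusted p = 0.0044) and by 1.29 at 120 ppm (limma adjusted p = 0.0058) in this fit. The median of the 12 ciliated markers was itself higher by 0.12 to 0.23 in the 4 exposed WT groups, with 0 of 12 called in each. In the averaged WT comparison 1 of the 12 was called, Cfap126, a gene of motile cilia, at 0.36 (limma adjusted p = 0.013), so the covariate itself holds a gene called with styrene. Whether the covariate measures the amount of airway in a sample was not tested.

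Krt15 was dim and uneven. In WT at 1 week it was 2.99, 2.85, 3.29, 3.05 and 3.97 in controls and 4.23, 3.65, 4.56, 3.79 and 3.91 at 120 ppm. In KO it was 4.41, 3.20, 5.58, 3.94 and 6.36 in controls and 4.05, 3.14, 3.27, 3.25 and 3.06 at 120 ppm. The KO controls were the most spread, and both exposed groups overlapped their controls. The change was 0.80 in WT (limma adjusted p = 0.30) and -1.34 in KO (limma adjusted p = 0.71). Their difference of -2.14 (SE 0.61, 95% interval -3.37 to -0.92) passed with a limma adjusted p of 0.042, where 2.37% of all genes were called and 1.76% were called lower. It was lost in 12 of 20 fits that each left out 1 animal, in all cases with the same sign, among them the fit without KO control animal 5 (-1.73, adjusted p = 0.11). It was -1.56 with an adjusted p of 0.20 under array weights.

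In TG mice at 4 weeks, Krt15 was higher at 40 ppm than in controls by an amount that did not pass the threshold. Controls measured 3.25, 3.39, 3.11, 3.41 and 3.40, and exposed animals 4.00, 4.25, 7.36, 3.98 and 5.89, with all 5 above all controls. This was the 1 of 96 exposure comparisons of these genes in which the groups did not overlap, beside 1.71% over all genes in the 12 comparisons and 1.6% in this one. The change was 1.78 (SE 0.43, 3.44-fold), with a limma adjusted p of 0.22 and an exact permutation p of 0.0079, the smallest that 5 against 5 can give. Animal 3, at 7.36, is the lung with high squamous markers, and 10 of 14 measured genes of that list were higher in it than in any of the other 89. Krt4, a keratin of stratified mucosa, was 12.48 in it and at most 3.63 elsewhere, Krtdap was 11.89 against at most 3.02, and Sprr3 was 10.23 against at most 3.52. Trp63, a basal cell transcription factor, was 3.46 in it and up to 4.13 elsewhere. Without that animal the Krt15 change was 1.22 (limma adjusted p = 0.52).

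Some genes of related lists were called in WT lungs after 1 week, where 4.67% of all genes were called at 40 ppm and 6.79% at 120 ppm. A list with 1 call of 15 or 21 is near that background. Of 24 other club and airway secretory genes, 2 rose and 2 fell at 40 ppm, and 2 rose and 3 fell at 120 ppm. Pon1, a paraoxonase, fell by 2.43 at 40 ppm and fell by 2.16 at 120 ppm, and Ces1g, a carboxylesterase, rose by 1.53 and 2.15 (limma adjusted p at most 1.2e-07). Of 15 mucous cell markers, 1 rose at both doses: Agr2, a disulfide isomerase of mucous cells, by 2.81 and 2.39 (limma adjusted p = 1.2e-05 and 0.00022). Of 21 secretoglobin, BPI fold, Reg and Lypd relatives, Lbp, a BPI fold protein that binds lipopolysaccharide, rose by 0.72 at both doses (limma adjusted p at most 0.00043). Lypd6 fell by 0.78 at 120 ppm (limma adjusted p = 0.0012).

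Among 19 genes known to respond to interleukin 17 or interleukin 22 in epithelium, a group to which Reg3g is often assigned, 2 rose and 1 fell at 40 ppm, and 1 rose at 120 ppm. Lcn2, a siderophore-binding lipocalin, rose by 1.62 and 1.51 (limma adjusted p = 2.2e-07 and 8.4e-07). Reg3g itself was at 1.08 and 0.75 in those comparisons, with intervals that include 0 (-0.83 to 2.99 and -1.15 to 2.66). Of 21 regulators of secretory differentiation, 0 were called at 40 ppm and 1 at 120 ppm, Notch1, which fell by 0.38 (limma adjusted p = 0.037). Of 14 basal and squamous and 12 ciliated markers, 0 were called at either dose. Of 9 alveolar type II markers 4 rose at 40 ppm and 1 at 120 ppm, of 8 type I markers 1 fell at 120 ppm, and of 13 nearby tissue markers 1 rose at 120 ppm. Beside 4.67% of all genes called at 40 ppm and 6.79% at 120 ppm, a single call is not read as a change of its list. For the secretory list the median change was -0.08 at both doses, beside 0.03 and 0.00 over all genes.

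The remaining comparisons called none of the 8 genes. They were 120 against 40 ppm in WT (0% of all genes at either week), the WT change at 4 weeks against 1 week (0.532% and 0.883% of all genes), and the other differences between strains in the styrene change. Those called 0.0234% and 0.0175% of all genes for KO against WT at 4 weeks (40 and 120 ppm), 1.53% for TG against WT at 40 ppm and 1 week, and 0.0117% and 0.0292% for TG against WT at 4 weeks. Over all 28 comparisons, 2 of 224 tests passed and 30 had an unadjusted p under 0.05. The share of all genes at that unadjusted limit was not counted here either. With the 5 added comparisons, that made 33 comparisons and 264 tests of the 8 genes.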

How the data were processed

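The authors deposited 1 table of log2 expression values per probe set for 90 arrays (Affymetrix HT MG-430 PM, 45141 probe sets, 0 missing values). RMA and Partek are named, with versions not given, per the submitters' processing notes. Per the labels' protocols, Trizol and RNeasy gave the RNA, which a 3' IVT PLUS kit amplified. The deposited log2 values were used as they are. Of the probe sets, 28898 had 1 listed gene symbol, which gave 17097 genes, and 104 control probe sets were left out.

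A model of 18 group means was fitted to all 90 arrays with limma 3.58.1 in R 4.3.3 (72 residual degrees of freedom), with Benjamini-Hochberg adjustment over 17097 genes within a comparison and a threshold of 0.05. No adjustment was made across comparisons. There were 28 comparisons; 5 that average doses and weeks were added after seeing the data. Two-sided permutation tests were exact for 5 against 5 animals and used 100000 resamples for 10 against 10. The labels call the 5 animals of a group biological replicates, and arrays limit the precision by their number. The fit was tested on simulated data.

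The 8 genes and all lists were chosen with earlier results of these data known. The text names all 8, the 3 most similar genes of each, up to 3 genes per list by smallest p, and Cyp2f2. The genes nearest in deviations and the squamous markers of 1 lung were chosen after their values were seen. Alternatives were quantile normalization again, an intensity trend with robust moderation, only the arrays compared, dim genes left out, the median over probe sets, a block on the replicate number, array weights, a poly-A control covariate, leaving out 4 arrays of low weight, and leaving out each animal. The ciliated marker covariate, the likeness in deviations and the correlations without 1 lung were added after seeing the data. Same-numbered animals of different groups deviated together with a mean r of 0.06 (from -0.65), against -0.01 for other numbers. Of 765 same-numbered pairs, 344 had r over 0.1, and 41 of 90 arrays correlated best with their own of the 5 numbers. The main fit did not treat the numbers as pairs, and the deviations between animals were not adjusted for them. What the numbers share was not tested.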

Additional observations from a re-analysis of the deposited data

Results flagged for a closer look

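In 144 sets of 5 animals (8 genes, 18 groups), 10 had an animal farther from the rest than Dixon's 95% limit allows, where chance gives about 1 in 20. For Scgb1a1 it was WT at 40 ppm and 4 weeks animal 3, the lowest at 13.57. For Scgb3a2 it was TG at 40 ppm and 4 weeks animal 5, the highest at 13.49. For Scgb3a1 it was the lowest animal of 3 groups, at 10.08 (TG, 40 ppm, 1 week, animal 3), 9.33 (TG, 120 ppm, 1 week, animal 4) and 11.55 (KO, 0 ppm, 4 weeks, animal 3). For Bpifa1 it was the lowest animal of 3 groups, at 7.47 (TG, 40 ppm, 1 week, animal 3), 9.998 (KO, 0 ppm, 4 weeks, animal 3) and 11.72 (TG, 40 ppm, 4 weeks, animal 3). For Krt15 it was the highest animal of 2 groups, at 4.10 (TG, 40 ppm, 1 week, animal 5) and 4.05 (KO, 120 ppm, 1 week, animal 1). The same animal thus stood apart in Scgb3a1 and Bpifa1 in TG at 40 ppm and 1 week and in KO controls at 4 weeks.

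In limma's test of the difference between strains, the styrene change in KO differed from that in WT for Scgb1a1 at 40 ppm and 1 week (0.27, adjusted p = 0.042) and for Krt15 at 120 ppm and 1 week (-2.14, adjusted p = 0.042).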

How the results depend on the processing

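No called value changed sign under any alternative run. A value called under neither setting counts here as unchanged whatever its sign; such signs turned in 280 of 5120 gene values with 1 animal left out and in 56 of 264 under the ciliated covariate. In the count of the 8 genes called, WT at 40 ppm and 1 week went from 0 to 1 under array weights, the ciliated covariate, the trend with robust moderation, only the arrays compared, the poly-A covariate and without arrays of low weight. WT at 120 ppm and 1 week went from 0 to 1 under array weights and the ciliated covariate, and to 2 without arrays of low weight. At 1 week in WT, Scgb1a1 at 40 ppm passed in 4 of 10 alternative settings (limma adjusted p 0.0096 to 0.22). Lypd2 at 120 ppm passed in 3 of 10 (limma adjusted p 0.00017 to 0.41), and in 2 of 10 fits that left out 1 animal. The ciliated covariate also gave 1 in place of 0 for WT at 40 ppm and 4 weeks and for KO against WT unexposed, and 1 in place of 0 for the averaged TG against WT difference. The poly-A covariate gave 1 in place of 0 for TG at 40 ppm and 4 weeks (Krt15). For the KO against WT difference at 120 ppm and 1 week the count of 1 became 0 under array weights, with dim genes left out (Krt15 is then not tested), without arrays of low weight and with only the arrays compared. Under the ciliated covariate it stayed at 1, but Krt15 was lost (-1.81, adjusted p = 0.084) and Lypd2 was gained (1.29, adjusted p = 0.0058). At 40 ppm and 1 week it became 2 under the ciliated covariate, and 0 with only the arrays compared or quantile normalization again. The TG against WT difference at 40 ppm and 1 week went from 0 to 1 with only the arrays compared. For the average in WT the count of 1 became 2 under array weights, dim genes left out, the trend, the poly-A covariate and without arrays of low weight. For the averaged KO against WT difference 0 became 2 under array weights and without arrays of low weight, and 1 under the ciliated covariate, the trend and the poly-A covariate.

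Leaving out 1 animal gave counts of 0 to 2 for the KO against WT difference at 120 ppm and at 40 ppm (1 week), for WT at 120 ppm and 1 week, and for the average in WT. It gave 0 to 1 for the averaged KO against WT difference, for the TG against WT difference at 120 ppm and 1 week, and for WT at 40 ppm and 1 week. With the replicate block all 33 counts stayed as they were, and all 264 gene values stayed on their side of the threshold. Of 90 arrays, 41 correlated best with their own of the 5 replicate numbers. The correlations between animals of a group were not run with this block. Cause of these changes was not tested. The levels of Scgb1a1 and Scgb3a2 near the top of the scale, and of Krt15 near the bottom, limit what the arrays resolve for them, and intervals of several log2 units limit Bpifb1 and Reg3g.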

Other observations

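Some other club and airway secretory genes were called between genotypes in unexposed lungs. Of 24 measured, 3 were called in KO against WT, all of them lower in KO, beside 0.275% of all genes. The count was also 3 in TG against WT, beside 0.287% of all genes. Of these calls, that of Cyp2f2 follows from the genotype of both strains. Besides Cyp2f2, they were the carboxylesterase Ces1g (-1.64, SE 0.15, limma adjusted p = 7.7e-14 in KO; -1.87, limma adjusted p = 1.4e-16 in TG) and the aldehyde dehydrogenase Aldh1a7 (-0.32, limma adjusted p = 0.0011 in KO; -0.25, limma adjusted p = 0.035 in TG). Ces1g averaged 5.22 in unexposed WT, 3.58 in KO and 3.34 in TG, and both strains without Cyp2f2 were thus in the dim range. After 4 weeks of styrene in WT, 1 gene of that list rose and 1 fell at each dose. Of all genes, 0.152% were called at 40 ppm and 0.439% at 120 ppm. Ces1g was higher by 2.48 at 40 ppm and 2.85 at 120 ppm (limma adjusted p = 1.1e-14 and 7.2e-18), and Pon1 was lower, at -1.02 and -1.18 (limma adjusted p = 0.0025 and 6.5e-05).

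The genes nearest to Krt15 between animals of a group were Myl1, a myosin light chain of skeletal muscle (r = 0.67 over 90 deviations), Mall (0.67) and the alcohol dehydrogenase Adh7 (0.60), and the salivary, thyroid, thymus and muscle list gave r of 0.63. Without the lung with high squamous markers these values were 0.58, 0.62, 0.63 and 0.61. This ranking was chosen after seeing the data and carries no test.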
